A study of Mus musculus with 24 samples.

Results

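BCL2L11, which encodes BIM, and BMF are 2 of the 14884 named genes measured in plasmacytomas of the human multiple myeloma line MM.1S. Both were found by the gene symbol of the array's probe table, and for each gene the probe set with the highest mean over 24 arrays was used: 16884335, the only probe set of BCL2L11, and 16807324, 1 of 2 probe sets of BMF. The tumours were grown under the skin of immunodeficient CB17-SCID mice and their RNA was hybridised to an Affymetrix array. The question of the series, from its title, was the activity of pomalidomide and dexamethasone once KIF11 is inhibited as well. Mouse is the organism in the labels, but the array's symbols are those of human genes, and mouse RNA able to bind the same probes would be included in each value.

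There were 8 groups with 3 arrays each, covering every combination of 3 drugs. The labels give 2 days for the 7 treated groups and no time for the control. They were a control given the vehicle PBS, filanesib at 10 mg/kg, dexamethasone at 0.5 mg/kg, pomalidomide at 8 mg/kg, filanesib plus dexamethasone, filanesib plus pomalidomide, pomalidomide plus dexamethasone, and the triple combination. All 8 groups carried the same single tumour line in the same mouse strain, which lacks functional T and B lymphocytes. Filanesib blocks the mitotic motor KIF11, pomalidomide makes cereblon degrade the lymphoid factors IKZF1 and IKZF3, and dexamethasone activates the glucocorticoid receptor. Levels are log2 values of the robust multi-array average method (RMA), so a difference of 1 is a doubling. Nothing in the labels says that the arrays of a group came from separate mice, and p-values therefore measure only the spread between these samples.

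BIM and BMF are BH3-only proteins, the trigger class of the BCL2 family. They bind the groove of survival proteins such as MCL1, BCL2 and BCL-XL, and so free the effectors BAX and BAK1 to open the outer mitochondrial membrane. In healthy cells both are held at the cytoskeleton by dynein light chains, BIM on microtubules and BMF on actin-bound myosin. BIM is a known mediator of glucocorticoid-induced death in lymphoid cells, and myeloma cells often depend on MCL1, a main partner of BIM.

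The tumour label was checked against plasma cell markers before the members were read. The 8 measured of 13 myeloma and plasma cell markers had means between 8.59 (MAF) and 11.1 (MZB1) over the 24 arrays, whose medians were 3.65 to 3.73. Pomalidomide alone was the group with the most varied arrays, with residual SDs of 0.232, 0.194 and 0.289 over all genes against 0.127 to 0.180 in the other 21. In these bulk tumours, fewer cells of a type and less RNA per cell cannot be told apart.

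BMF was higher in tumours treated with pomalidomide, in each background of the other drugs. The control arrays read 6.50, 6.55 and 6.70, and those of pomalidomide alone 6.76, 6.80 and 6.90. Every array of pomalidomide alone thus lay above every control array, a separation in either direction that 15.6% of all genes showed. The means were 6.58 ± 0.11 and 6.82 ± 0.07 (SD, n = 3 each).

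Beside filanesib the same separation was seen. The arrays of filanesib alone read 6.47, 6.73 and 6.55 (mean 6.58 ± 0.13), and those of filanesib plus pomalidomide 7.22, 6.75 and 6.93 (6.97 ± 0.24). The lowest array of the pair was only just above the highest of filanesib alone, and 19.2% of genes did not overlap between these groups.

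Beside dexamethasone the gap was wider. The arrays of dexamethasone alone read 6.69, 6.89 and 6.67 (6.75 ± 0.12), and those of pomalidomide plus dexamethasone 7.55, 7.09 and 6.98 (7.20 ± 0.30). The value of 7.55 was the highest BMF level of the 24 arrays. Here 11.2% of genes did not overlap.

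Beside both drugs, the arrays of filanesib plus dexamethasone read 6.53, 6.72 and 6.60 (6.62 ± 0.09), and those of the triple combination 7.33, 7.13 and 6.91 (7.12 ± 0.21). The groups did not overlap, as for 13.5% of genes. By their means, BMF levels therefore fell into 4 lower groups without pomalidomide and 4 higher groups with it. Dexamethasone alone, at the top of the lower set, overlapped pomalidomide alone and filanesib plus pomalidomide, which had the lowest means of the higher set.

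**Figure D1:**
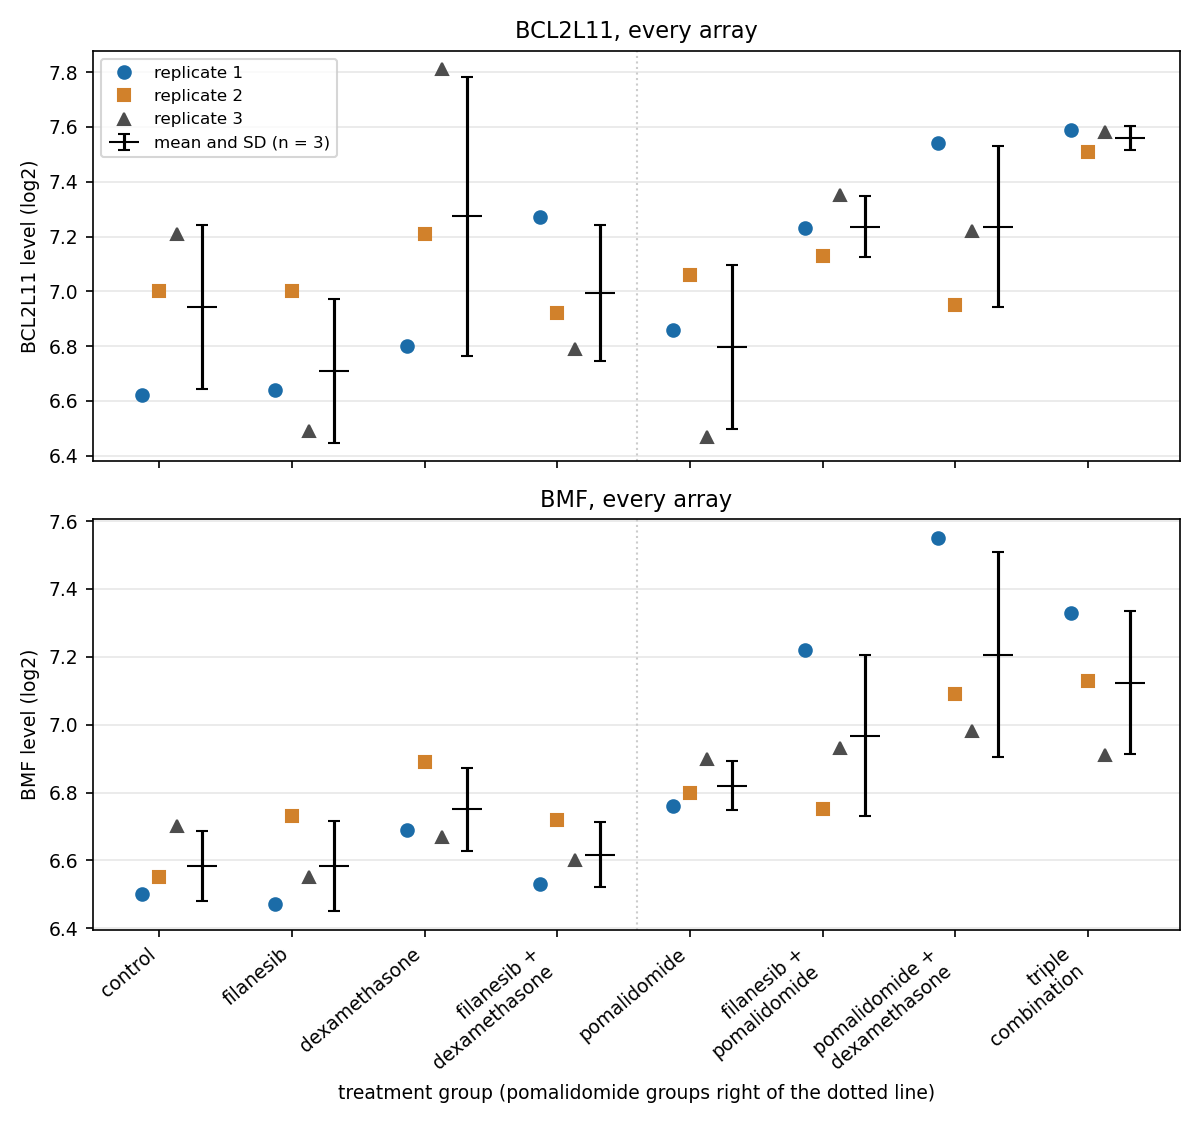
Level of BCL2L11 (top) and BMF (bottom) on each of the 24 arrays, on the log2 scale, by treatment group; the symbol gives the replicate number and the bars the mean and SD of 3 arrays. The 4 groups with pomalidomide stand to the right of the dotted line: for BMF 9 of their 12 arrays lie above every array on the left, whereas the BCL2L11 arrays of both sides overlap and the triple combination has the narrowest spread.

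For each drug, its 4 differences (present minus absent, in each background of the other drugs) were averaged, which sets 12 arrays against 12 and is called the average effect. BMF ran from 6.75 to 7.55 with pomalidomide (median 6.95) and from 6.47 to 6.89 without it (median 6.63). All 12 arrays with pomalidomide were above the median of those without, and 9 of 12 were above all of them. The average effect was 0.40 ± 0.07 (SE, 95% interval 0.25 to 0.54, 1.32-fold, limma adjusted p = 0.00139, Benjamini-Hochberg over 14884 genes). BMF thus rose with pomalidomide at the threshold of an adjusted p under 0.05, which 4.86% of genes passed, 2.21% as rises and 2.65% as falls.

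The single differences that make up this average were 0.24 ± 0.14 with no other drug, 0.39 ± 0.14 beside filanesib, 0.45 ± 0.14 beside dexamethasone and 0.51 ± 0.14 beside both (SE, 3 arrays against 3). Their limma adjusted p were 0.419, 0.302, 0.470 and 0.284, so none passed by itself. The share of genes that passed was 1.98% for the first, 0.249% for the second, and 0.0269% for each of the others.

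The rise was smaller and no longer passed without the 8 arrays numbered 1. In 3 of the 4 pomalidomide groups the highest BMF array carried the number 1. With those 8 arrays omitted, an alternative chosen after the data had been seen, the average effect was 0.26 (limma adjusted p = 0.142), and 93 genes passed in place of 723. Omission of any single array left it between 0.35 and 0.43, past the threshold in 24 of 24 omissions. Without replicates 1 and 3 of pomalidomide alone it was 0.39 (adjusted p = 0.00715).

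The other BMF probe set, 16799423, served as a check and did not show the rise. Its mean of 3.43 lay below the medians of the arrays, and its 24 values ran from 3.01 to 3.89. Its average difference with pomalidomide was 0.07 ± 0.07 (limma adjusted p = 0.714 over 53617 probe sets). With the mean of both probe sets as its level, BMF rose by 0.23 with pomalidomide (adjusted p = 0.0332). Over the 24 arrays both probe sets had a Pearson r of 0.44 and a Spearman rho of 0.32, given as a description of arrays that share their groups.

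BMF did not pass for either of the other drugs. With dexamethasone it was higher by 0.18 ± 0.07 on average (SE, 95% interval 0.04 to 0.33, limma adjusted p = 0.583), with 7 of 12 arrays above the median of those without. With filanesib it differed by -0.02 ± 0.07 (95% interval -0.17 to 0.13, adjusted p = 0.948). In the average effect of dexamethasone 0.0134% of genes passed, all of them lower (0.0134%) and 0% higher. In that of filanesib 1.4% passed, 1.25% higher and 0.148% lower.

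The groups were ordered differently for BCL2L11, none of whose comparisons passed over all genes where every array counted alike. The control arrays read 6.62, 7.0 and 7.21 (6.94 ± 0.30), and those of dexamethasone alone 6.80, 7.21 and 7.81 (7.27 ± 0.51). Dexamethasone alone ran from 6.80, below the control mean, to 7.81, the highest BCL2L11 level of all 24, and it overlapped the control.

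Filanesib and pomalidomide given singly had the lowest BCL2L11 means. The arrays of filanesib alone read 6.64, 7.0 and 6.49 (6.71 ± 0.26), and those of pomalidomide alone 6.86, 7.06 and 6.47 (6.80 ± 0.30). Both overlapped the control. Together the drugs gave 7.23, 7.13 and 7.35 (7.24 ± 0.11), above every array of either drug alone. For comparison, 19.2% of all genes did not overlap between the pair and filanesib, and 13.6% between the pair and pomalidomide.

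With dexamethasone the pattern was similar at a higher level. The arrays of filanesib plus dexamethasone read 7.27, 6.92 and 6.79 (6.99 ± 0.25), and those of pomalidomide plus dexamethasone 7.54, 6.95 and 7.22 (7.24 ± 0.30). The triple combination gave 7.59, 7.51 and 7.58 (7.56 ± 0.04), the highest BCL2L11 mean and the closest 3 arrays of any group. It lay above every array of filanesib plus dexamethasone, a separation shown by 13.5% of genes, but overlapped pomalidomide plus dexamethasone.

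In order of their means, the groups ran for BCL2L11 from filanesib through pomalidomide, control, filanesib plus dexamethasone, filanesib plus pomalidomide, pomalidomide plus dexamethasone and dexamethasone to the triple combination. For BMF they ran from filanesib through control, filanesib plus dexamethasone, dexamethasone, pomalidomide, filanesib plus pomalidomide and the triple combination to pomalidomide plus dexamethasone. The arrays of every pair of neighbours in either order overlapped. Dexamethasone alone ranked second from the top for BCL2L11 and below all pomalidomide groups for BMF.

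On average over backgrounds, BCL2L11 was higher by 0.35 ± 0.11 with dexamethasone (SE, 95% interval 0.13 to 0.56, 1.27-fold). The unadjusted limma p was 0.00327 and the adjusted p 0.457, so it did not pass over all genes. The difference was positive in each background: 0.33 with no other drug, 0.28 beside filanesib, 0.44 beside pomalidomide and 0.33 beside both (SE 0.21 each). None of these passed, with limma adjusted p from 0.515 to 0.9998, and neither did those of BMF (0.17, 0.04, 0.38 and 0.16, SE 0.14, adjusted p from 0.393 to 0.9998). In the 4 comparisons the shares of genes that passed were 0.00672% with no other drug, 0.00672% beside filanesib, 0.00672% beside pomalidomide and 0% beside both, where 701 genes had an unadjusted limma p under 0.05.

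The average pomalidomide effect on BCL2L11 was 0.23 ± 0.11 (SE, 95% interval 0.01 to 0.45, limma adjusted p = 0.262), and the average filanesib effect 0.06 ± 0.11 (-0.16 to 0.28, adjusted p = 0.860). With array weights, which count variable arrays less, the pomalidomide effect was 0.32 and passed (limma adjusted p = 0.0308). With these weights 1210 genes passed in place of 723. Without the arrays numbered 1 the pomalidomide effect on BCL2L11 was 0.11. Each average was made up of differences of opposite sign. Where filanesib was absent, the pomalidomide difference was -0.09 ± 0.15, and where it was present 0.55 ± 0.15 (SE, 6 arrays against 6). For filanesib it was -0.26 ± 0.15 without pomalidomide and 0.38 ± 0.15 beside it. These 4 values, and their counterparts for BMF below, were split out after the data had been seen and are given with no test of their own.

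**Figure D2:**
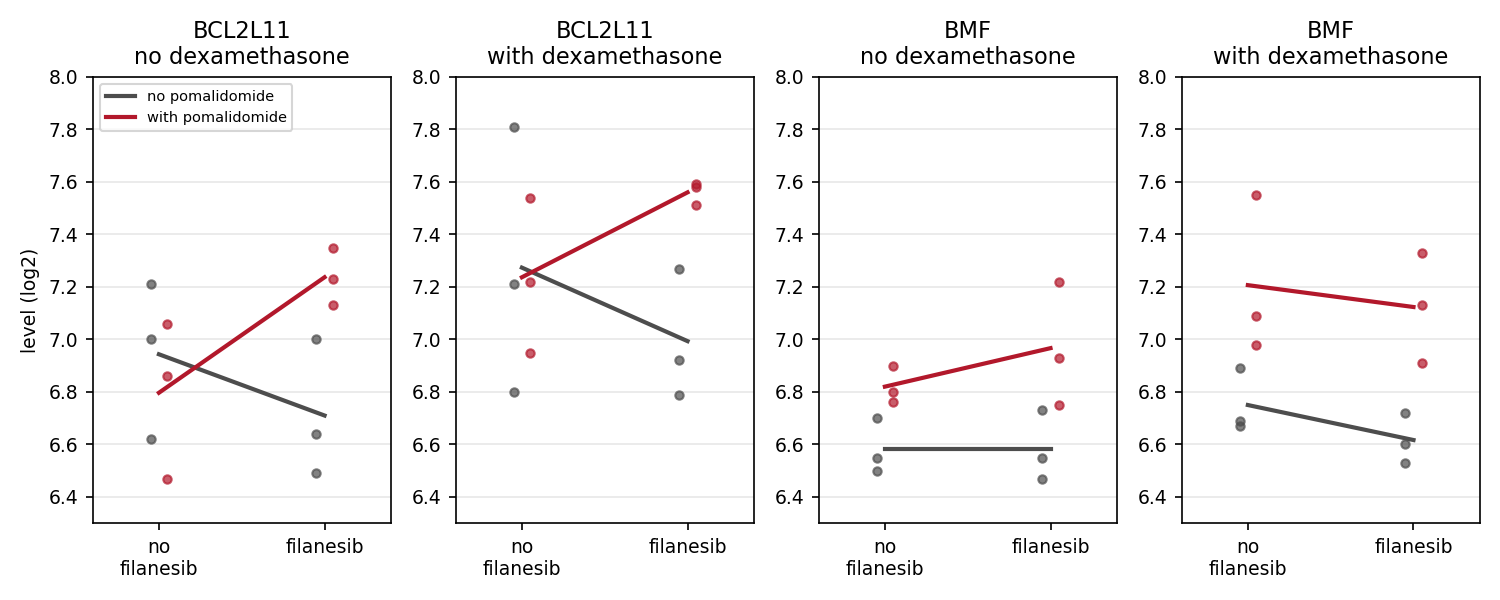
Levels on the log2 scale of BCL2L11 (left pair) and BMF (right pair) without and with filanesib, drawn for no dexamethasone and for dexamethasone; points are arrays and lines join the means of 3 arrays with (red) and without (grey) pomalidomide. The BCL2L11 lines slope down without pomalidomide and up with it, while the BMF lines with pomalidomide lie above those without.

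The interaction of filanesib and pomalidomide asks directly whether the effect of one drug differs with the other present, averaged over dexamethasone. For BCL2L11 it was 0.64 ± 0.21 (SE, 95% interval 0.20 to 1.08), with an unadjusted limma p of 0.00593 and an adjusted p of 0.612. It did not pass over all genes, and neither did any other gene (0%), although 996 of 14884 had an unadjusted p under 0.05. Without dexamethasone the difference was 0.67 ± 0.30 (SE, 95% interval 0.06 to 1.29), and beside it 0.61 ± 0.30 (-0.01 to 1.22). These values were split out after the data had been seen and have no test of their own. Without the 8 arrays numbered 3 the averaged interaction fell to 0.21 (adjusted p = 0.999), and without those numbered 1 it was 0.98 (adjusted p = 0.371).

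BMF had an interaction of filanesib and pomalidomide of 0.10 ± 0.14 (95% interval -0.19 to 0.40, limma adjusted p = 0.929). Its pomalidomide difference was 0.35 ± 0.10 without filanesib and 0.45 ± 0.10 beside it. The interval leaves room for a BMF interaction of either sign, and whether the genes differ from each other in this term was not tested.

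The other interactions were smaller than their intervals for both genes. For filanesib and dexamethasone the values were -0.08 ± 0.21 for BCL2L11 and -0.18 ± 0.14 for BMF (SE, limma adjusted p = 0.9997 for both). For pomalidomide and dexamethasone they were 0.08 ± 0.21 (adjusted p = 0.989) and 0.17 ± 0.14 (adjusted p = 0.946). No gene passed in either comparison (0% each), with 646 and 821 genes at an unadjusted limma p under 0.05.

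The shares of each gene's variation among the 24 arrays describe the same contrast. For BMF 53.7% of the sum of squares went with pomalidomide, 11.6% with dexamethasone and 28.5% with differences within groups. For BCL2L11 23.7% went with dexamethasone, 20.3% with the joint term of filanesib and pomalidomide, 10.3% with pomalidomide and 44.3% with differences within groups. These are descriptions of 24 values, with no test.

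**Figure D3:**
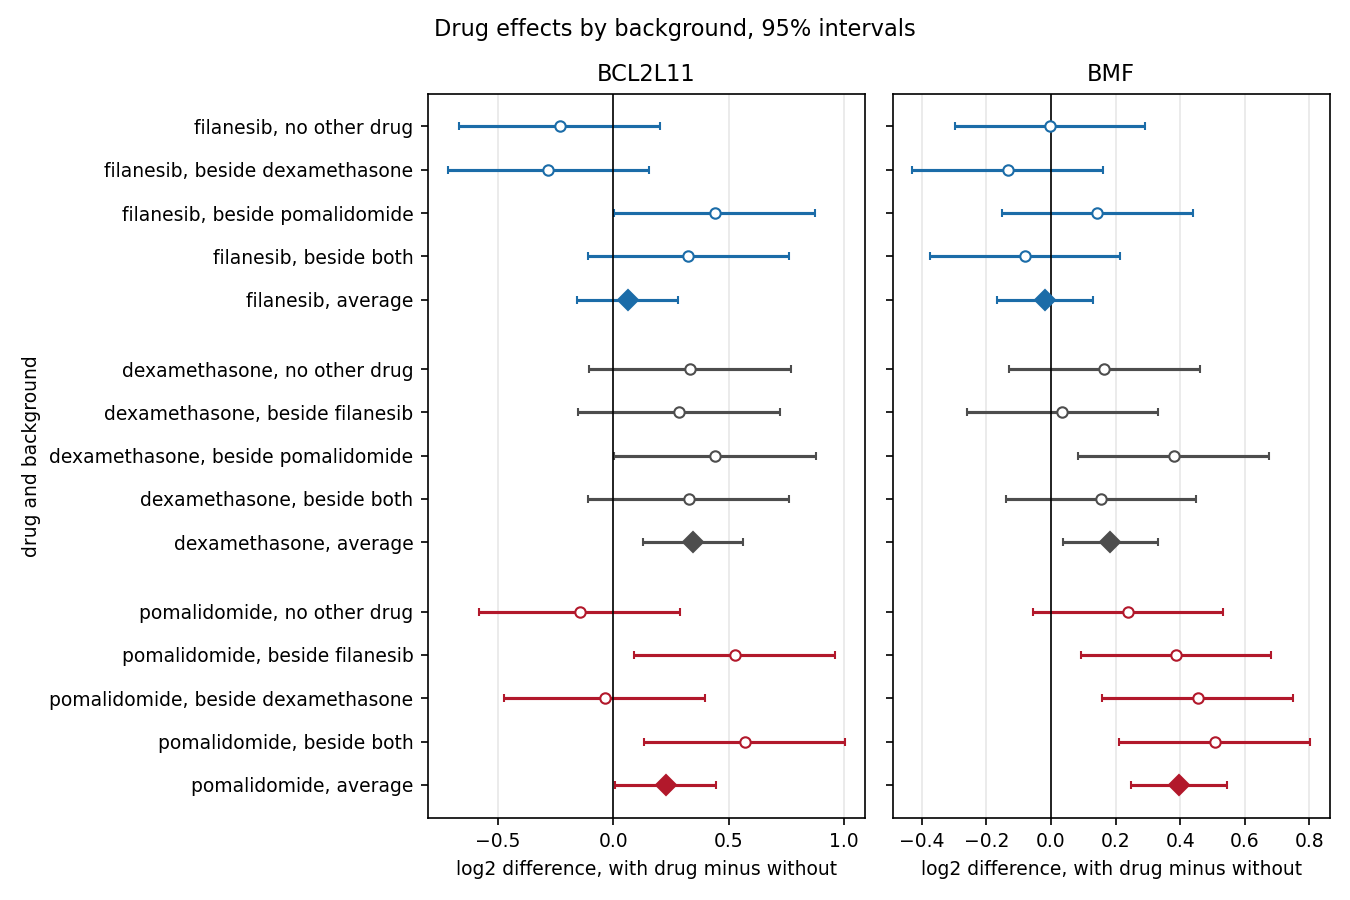
Log2 difference with minus without each drug for BCL2L11 (left) and BMF (right); open circles are single backgrounds (3 arrays against 3), filled diamonds the average over 4 backgrounds (12 against 12), and bars 95% intervals of the fit. All 4 pomalidomide differences of BMF are above 0, from 0.24 to 0.51, while those of BCL2L11 are below 0 without filanesib and above 0 beside it.

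Against the control, the largest BMF difference was that of pomalidomide plus dexamethasone, at 0.62 ± 0.14 (SE, 1.54-fold, limma adjusted p = 0.0815). The triple combination followed at 0.54 ± 0.14 (adjusted p = 0.106), and filanesib plus pomalidomide at 0.38 ± 0.14 (adjusted p = 0.443). Both the pair with dexamethasone and the triple combination lay above all control arrays, as did 15.4% and 18.9% of genes in either direction. For BCL2L11 the largest was that of the triple combination, at 0.62 ± 0.21 (SE, 1.54-fold, adjusted p = 0.246), again with no overlap. The pairs with pomalidomide came to 0.29 ± 0.21 each.

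None of the 14 comparisons of a treatment with the control passed for the 2 genes. The share of all genes that passed was 0% for filanesib, 0.00672% for dexamethasone, 1.98% for pomalidomide, 0% for filanesib plus dexamethasone, 0.141% for filanesib plus pomalidomide, 0.161% for pomalidomide plus dexamethasone and 0.255% for the triple combination. For filanesib and for filanesib plus dexamethasone, 587 and 897 genes had an unadjusted limma p under 0.05. The 7 comparisons share 1 control group of 3 arrays. With limma's array weights 3 of the 14 passed: the triple combination for BCL2L11 (0.68, adjusted p = 0.0378) and for BMF (0.61, adjusted p = 0.0156), and pomalidomide plus dexamethasone for BMF (0.59, adjusted p = 0.0282). The share of all genes that passed these comparisons with array weights was not counted. For the average effect of pomalidomide, array weights raised the number of genes that passed from 723 to 1210.

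Filanesib added to pomalidomide plus dexamethasone, the combination in the title of the series, moved neither gene past the threshold. BCL2L11 was higher by 0.33 ± 0.21 in the triple combination (SE, 95% interval -0.11 to 0.76, limma adjusted p = 0.805). BMF differed by -0.08 ± 0.14 (-0.38 to 0.21, adjusted p = 0.949). In this comparison 0.00672% of genes passed and 15.8% did not overlap. Both intervals include 0.

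The remaining filanesib differences did not pass either. For BCL2L11 they were -0.23 ± 0.21 with no other drug (SE, limma adjusted p = 0.999), -0.28 ± 0.21 beside dexamethasone (adjusted p = 0.992) and 0.44 ± 0.21 beside pomalidomide (adjusted p = 0.372). Those of BMF were -0.00, -0.13 and 0.14 (SE 0.14). The arrays of BCL2L11 overlapped in the first and second of these comparisons and separated in the third. The shares of genes that separated were 10.8%, 11.7% and 13.6%, and those that passed 0%, 0.0202% and 0.356%. The pomalidomide differences of BCL2L11 were 0.53 ± 0.21 beside filanesib (adjusted p = 0.351) and 0.57 ± 0.21 beside filanesib plus dexamethasone (adjusted p = 0.548), both with no overlap. In these comparisons 19.2% and 13.5% of all genes did not overlap, and 0.249% and 0.0269% passed.

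On the 24 arrays the levels of the members had a Pearson r of 0.54 and a Spearman rho of 0.54. Over the 8 group means r was 0.73 and rho 0.69, and over the deviations of the arrays from their group means r was 0.23 and rho 0.27. These are descriptions with no test, since arrays of a group share their treatment.

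**Figure D4:**
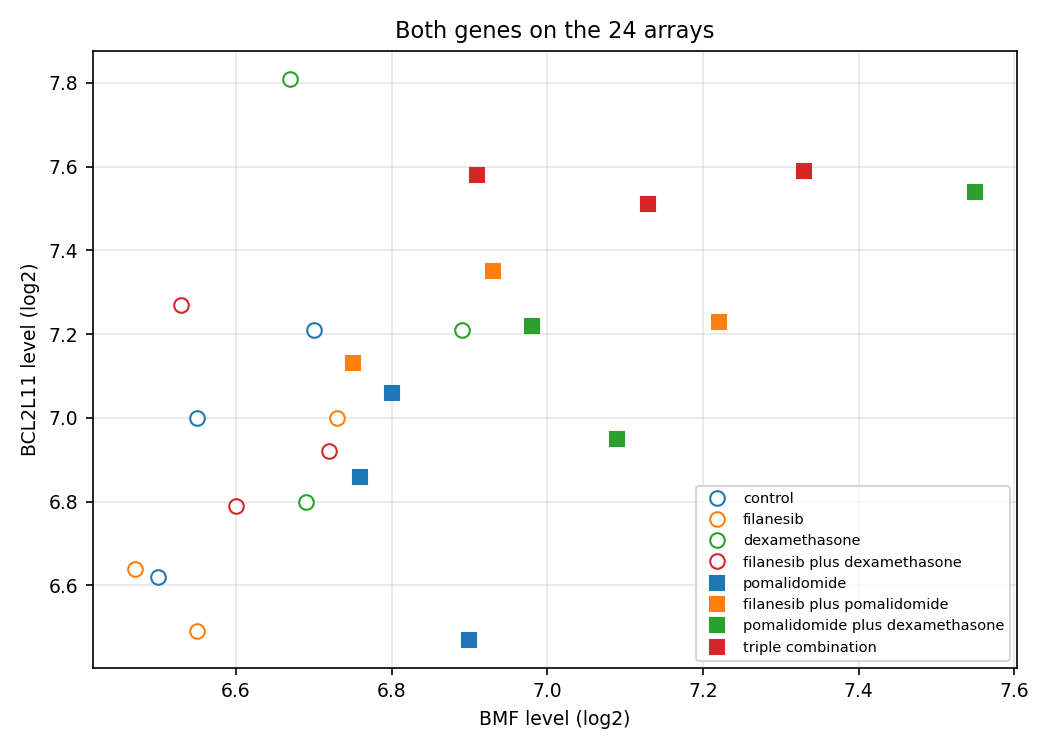
BCL2L11 level against BMF level on each of the 24 arrays, both on the log2 scale; open circles are groups without pomalidomide, filled squares groups with it, and the colour gives the companion drugs. The 3 arrays of the triple combination lie between 7.51 and 7.59 for BCL2L11, and the array with the highest BCL2L11 level, 7.81 with dexamethasone alone, has a BMF level of 6.67.

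Of the BH3-only death activators, 7 of 8 listed genes were measured, and BMF was the only one to pass for any drug with equal array weights. With pomalidomide 1 of 7 rose and 0 fell, with a median difference of 0.01, against -0.01 over all genes tested. Of all genes 2.21% rose and 2.65% fell. PMAIP1, which encodes NOXA, a partner of MCL1, differed by -0.15 ± 0.09 with pomalidomide and by 0.17 ± 0.09 with filanesib (SE, limma adjusted p = 0.424 and 0.469). BBC3, which encodes the p53 target PUMA, differed by 0.09 ± 0.08 with pomalidomide (adjusted p = 0.674). With filanesib and with dexamethasone 0 of 7 passed, and the medians were -0.02 for both.

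None of the measured effector and survival genes passed for any drug with equal array weights. Of the pore formers BAX, BAK1 and BOK, 0 of 3 passed, and their pomalidomide differences were -0.13 ± 0.08, -0.05 ± 0.07 and -0.08 ± 0.07 (SE, median -0.08). Of 6 survival genes 5 were measured and 0 passed, with a pomalidomide median of 0.02. BCL2, the founding survival gene, differed by 0.20 ± 0.09 (limma adjusted p = 0.234). It passed with array weights (limma adjusted p = 0.0274), where 1210 genes passed in place of 723.

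MCL1, the survival protein that holds BIM in many myeloma cells, differed by 0.03 ± 0.06 with pomalidomide, -0.04 ± 0.06 with dexamethasone and -0.06 ± 0.06 with filanesib (SE, limma adjusted p = 0.875, 0.918 and 0.754). Its group means lay between 9.01 and 9.29. BCL2L1, which encodes BCL-XL, differed by -0.00 ± 0.06 with pomalidomide, a value whose sign turned with median centring, with further quantile normalisation and in omissions of single arrays. The MCL1 value with pomalidomide turned in 1 such omission. The list medians with filanesib were -0.07 for the effectors and -0.03 for the survival genes, and with dexamethasone -0.00 for each.

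**Figure D5:**
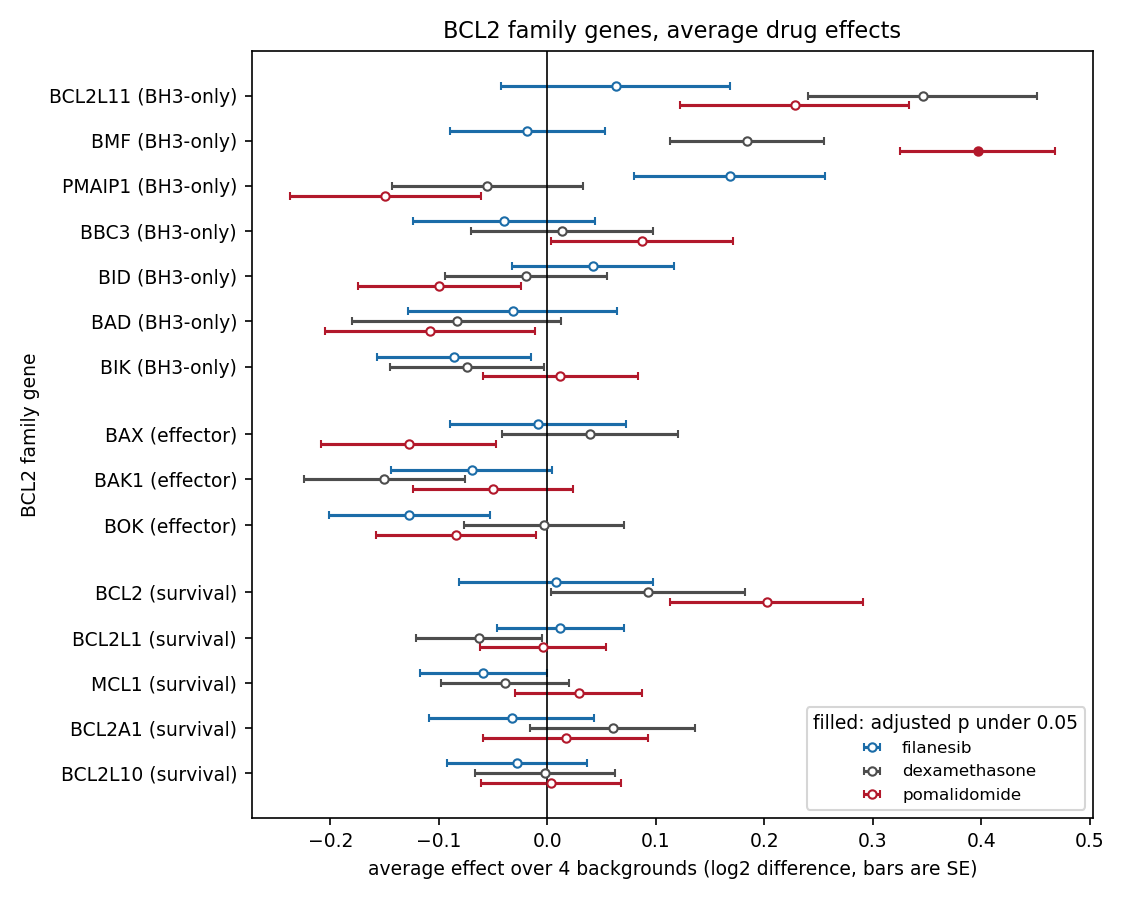
Average effect of filanesib (blue), dexamethasone (grey) and pomalidomide (red) on 15 BCL2 family genes, as the log2 difference of 12 arrays against 12; bars are the SE and a filled circle marks an adjusted p under 0.05. The only filled circle is BMF with pomalidomide, at 0.40, and the largest dexamethasone difference is that of BCL2L11, at 0.35.

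Of the proteins that hold or remove BIM and BMF, 4 of 10 were measured and 0 passed for any drug, with medians of 0.01 for filanesib, -0.01 for dexamethasone and 0.10 for pomalidomide. TRIM2, a ubiquitin ligase that acts on phosphorylated BIM, differed by 0.17 ± 0.08 with pomalidomide (SE, limma adjusted p = 0.267). BTRC, the substrate receptor of another ligase that acts on BIM, differed by 0.14 ± 0.07 (adjusted p = 0.346). The light chain genes DYNLL1 and DYNLL2 and the glucocorticoid receptor gene NR3C1 were not analysed here, since no probe set listed in the probe table carried those symbols.

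Of 14 transcription factors known to act on BCL2L11 or BMF, 12 were measured and 3 fell with pomalidomide, while 0 rose. Of all genes 2.65% fell and 2.21% rose. IRF4, the plasma cell survival factor, fell by 0.54 ± 0.11 on the log2 scale (SE, limma adjusted p = 0.00557). Its means lay between 10.1 and 10.3 in the 4 groups without pomalidomide and between 9.57 and 9.80 in the 4 with it. E2F1, a cell cycle factor, fell by 0.53 ± 0.11 (adjusted p = 0.00519), and TP73, a member of the p53 family, fell by 0.52 ± 0.09 (adjusted p = 0.00117). Like BMF, these 3 did not pass without the 8 arrays numbered 1 (adjusted p = 0.145, 0.0790 and 0.0864), and E2F1 did not pass without those numbered 3 either.

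FOXO3, a direct activator of BCL2L11 transcription, differed by 0.16 ± 0.09 with pomalidomide, 0.07 ± 0.09 with dexamethasone and -0.01 ± 0.09 with filanesib (SE, limma adjusted p = 0.431, 0.897 and 0.981). With filanesib and with dexamethasone 0 of the 12 factors passed. The medians of the list were -0.03 for pomalidomide, 0.04 for dexamethasone and -0.01 for filanesib.

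Of 14 microRNA genes known to target BIM, 8 were measured and 0 passed for any drug. Their pomalidomide differences ran from -0.22 to 0.03, with a median of -0.11. MIR32 differed by -0.19 ± 0.07 (SE, limma adjusted p = 0.142) and MIR25 by -0.22 ± 0.09 (adjusted p = 0.202). The group means of MIR32 lay between 2.45 and 2.97, below the medians of the arrays. Downstream, 3 of 9 genes of the apoptosome and its inhibitors were measured and 0 passed. HTRA2, a mitochondrial protease that blocks caspase inhibitors, differed by -0.13 ± 0.05 with pomalidomide (adjusted p = 0.204), and XIAP, such an inhibitor, by 0.11 ± 0.07 (adjusted p = 0.499).

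Other measures moved with the drugs to which the members were compared. Of all genes, 2.21% rose with pomalidomide and 1.25% with filanesib. The interferon response genes rose with pomalidomide in 5 of 5 measured of 8, with a median of 1.28, and their summed level (log2 of the sum of linear values) had group means from 7.60 to 7.74 without pomalidomide and from 8.49 to 9.29 with it. The largest was XAF1, which antagonises XIAP, at 1.57 ± 0.12 (SE, limma adjusted p = 3.14e-08), followed by IFI44 (1.44 ± 0.13), IFIT1 (1.28 ± 0.22) and IFIT3 (1.28 ± 0.23). The part of these changes in the BMF rise was not tested.

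Of 9 macrophage markers 5 were measured, and CD68, a lysosomal glycoprotein, was the only one to pass with pomalidomide (0.99 ± 0.09, SE, limma adjusted p = 4.31e-07). The summed level of the 5 had group means from 9.03 to 9.21 without pomalidomide and from 9.92 to 10.2 with it. This sum was made up mostly of CD68, which had a mean of 9.49 over the 24 arrays. The median difference of the 5 with pomalidomide was 0.04. CD14, CD163 and LYZ had means of 3.07, 2.95 and 2.67, below the array medians, and CSF1R a mean of 4.37, above them. Their part in the BMF rise was not tested. The 5 measured of 7 endothelial markers and 2 of 6 fibroblast markers had 0 passing for any drug, with summed levels of 5.95 to 6.19 and 3.25 to 3.39 over all 8 groups. Of these, PECAM1 differed by -0.14 ± 0.09 with pomalidomide, EMCN by 0.05 ± 0.05, DCN by 0.04 ± 0.04 and LUM by -0.03 ± 0.05 (SE). DCN and LUM had means of 2.32 each, EMCN of 2.46 and KDR of 2.85, all below the array medians. PECAM1 had a mean of 3.67, VWF of 3.97 and CLDN5 of 4.64.

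Of the 8 myeloma and plasma cell markers, CD38 rose with pomalidomide (0.18 ± 0.05, SE, limma adjusted p = 0.0304), IRF4 fell as given above and 6 did not pass. CD38 passed in 16 of 24 omissions of an array and 10 of 13 other alternatives, with adjusted p up to 0.393 over all of them. Their summed level had group means from 13.02 to 13.15. With filanesib 8 of 8 genes of mitotic cells rose, with a median of 0.59, where 1.25% of all genes rose. CDC20, BUB1, PLK1 and TOP2A rose by 0.71 ± 0.06, 0.63 ± 0.06, 0.63 ± 0.07 and 0.52 ± 0.08 (SE, limma adjusted p = 1.44e-06, 1.01e-05, 3.98e-05 and 7.75e-04). Of these 4, TOP2A did not pass without the arrays numbered 3 (adjusted p = 0.109) or those numbered 1. The summed level of the mitotic genes had group means from 10.95 to 11.22 without filanesib and from 11.5 to 11.7 with it. Its part in the BCL2L11 pattern was not tested.

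The genes whose levels over the 24 arrays were most like those of BCL2L11, by Pearson correlation, were GAB1, a docking protein of receptor kinases (r = 0.92), MED13L, a Mediator subunit (0.87), CHD2, a chromatin remodeller (0.87), RGL1, an exchange factor for Ral (0.86), and KAT6B, a histone acetyltransferase (0.86). Their dexamethasone differences ran from 0.16 (MED13L) to 0.30 (GAB1), with limma adjusted p from 0.469 to 0.721. Their pomalidomide differences were of similar size, from 0.14 (CHD2) to 0.29 (GAB1), with adjusted p from 0.0821 to 0.623. None of them passed for either drug. The highest mean was in the triple combination for 4 of 5, GAB1 excepted. The likeness measure was taken over 24 arrays that share groups, and carries no test.

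For BMF the most alike were BLNK, an adaptor of B cell receptor signalling (r = 0.88), RSPH4A, a part of the radial spoke of cilia (0.87), DOCK4, an activator of small GTPases (0.86), RTP4, a receptor chaperone (0.86), and CEACAM1, a cell adhesion molecule (0.86). Their pomalidomide differences ran from 0.46 (RTP4) to 0.98 (DOCK4) and their dexamethasone differences from 0.03 to 0.24. Since the genes were chosen for their likeness to BMF over the same arrays, these are descriptions with no test. For 4 of the 5, DOCK4 excepted, the highest mean was that of pomalidomide plus dexamethasone, the group that was also highest for BMF.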

How the data were processed

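Per the submitters' processing notes, the authors made the deposited log2 values with RMA (background correction, quantile normalisation and probe summary) in Affymetrix Expression Console. Software versions: not given in the sources used here. Quantile normalisation equalises the arrays' distributions and would hide a shift common to most genes. Of 53617 probe sets, 16098 had 1 gene symbol in the probe table, 0 had several, and 37519 were not listed there and stayed unnamed. For 779 genes with more than 1 probe set the one with the highest mean was used, leaving 14884 genes. No filter on low values was applied, and both members were also kept in the alternative that omitted dim genes.

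Groups were taken from the labels. limma 3.58.1 in R 4.3.3 fitted a mean per group to all 24 arrays (16 residual degrees of freedom, eBayes), in 22 comparisons per gene. Two-sided p-values were adjusted over all genes within each comparison (Benjamini-Hochberg, threshold 0.05). The script was tested on simulated data. Precision is limited by 3 arrays per group, with a median SE of 0.14 for a difference between 2 groups.

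The members, lists and named genes were chosen with earlier results of these data known. From each list, members past the threshold for any drug were named (at most 4 per list and drug, by smallest p). Where none passed, the 2 with the smallest p for pomalidomide were named, alongside MCL1, BCL2, BCL2L1, PMAIP1, BBC3, FOXO3, IRF4, NR3C1, DYNLL1 and DYNLL2. BAK1 was named in addition, to complete its list of 3. For likeness, the 5 genes with the highest Pearson correlation were taken. Alternatives were a further quantile normalisation, median centring, array weights, omission of dim genes, a robust trended prior, a replicate block, every probe set, the mean of probe sets, protein-coding genes only, only the compared groups, omission of each array, of 2 pomalidomide arrays, and of all arrays of 1 number. Genomic positions were not used here.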

Additional observations from a re-analysis of the deposited data

How the results depend on the processing

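Over 44 comparisons of the members and 1660 alternatives, 1607 kept direction and side of the threshold, 47 turned direction (none of them passing), 5 newly passed and 1 no longer passed. Many alternatives could not move the difference itself, such as omission of an array outside the compared groups, or the trended prior. Most comparisons also failed to pass from the start, so the count of 1607 is no measure of robustness. BMF with pomalidomide passed in 24 of 24 omissions of an array (0.35 to 0.43) and 12 of 13 other alternatives, and was 0.26 without the arrays numbered 1. Array weights newly passed BCL2L11 with pomalidomide (0.32, adjusted p = 0.0308), the triple combination against control for BCL2L11 (0.68) and BMF (0.61), and, for BMF, pomalidomide plus dexamethasone against control (0.59) and the triple combination against filanesib plus dexamethasone (0.56). Array weights also raised the number of all genes that passed with pomalidomide from 723 to 1210. The causes of the shifts given here were not tested.

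Same-numbered arrays did not deviate together (mean r of -0.02 over 84 pairs, 17 above 0.1), so the numbers were not used as pairs. With the replicate block BMF rose by 0.40 with pomalidomide (adjusted p = 0.00216), and 670, 175 and 0 genes passed for pomalidomide, filanesib and dexamethasone. No call for a member changed, but with every number in every group the block cannot alter the difference itself. Nor can it absorb a shift whose sign differs between groups.

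The number of genes that passed with pomalidomide was 723, against 1210 with array weights, 1103 of all probe sets, 93 without the arrays numbered 1 and 260 without those numbered 3. Single omissions gave 512 to 879. With filanesib it was 208, against 330, 128, 13 and 14 in the same alternatives, 130 without the arrays numbered 2, and 130 to 318 in single omissions. With dexamethasone it was 2, against 6 with array weights, 1 with further quantile normalisation, 1 without dim genes, 1 without the arrays numbered 2, and 0 with every probe set, with protein-coding genes only, without replicates 1 and 3 of pomalidomide and without the arrays numbered 1 or 3 (0 to 2 in single omissions). BCL2 family genes that passed with pomalidomide were 1, against 3 with array weights and 0 without the arrays numbered 1.

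The following differences, none of which passed, turned direction. With array weights these were BMF with filanesib (0.0014), BMF in the triple combination against pomalidomide plus dexamethasone (0.020), BCL2L11 for the interaction of pomalidomide and dexamethasone (-0.018) and with pomalidomide alone (0.067), LUM with pomalidomide (0.0045) and BCL2L1 (0.0011). BCL2L1 also turned with further quantile normalisation (0.021), median centring (0.0093) and without the arrays numbered 1 (0.052). Without replicates 1 and 3 of pomalidomide, BCL2L11 turned with filanesib (-0.0020), for the interactions of filanesib (0.049) and pomalidomide (-0.055) with dexamethasone, and with pomalidomide alone (0.11). Without the arrays numbered 1, BCL2L11 turned with filanesib (-0.020), with filanesib plus dexamethasone (-0.25) and pomalidomide plus dexamethasone (-0.020) against control, and BMF with filanesib alone (0.012) and beside pomalidomide (-0.013). Without those numbered 2, BMF turned for filanesib plus dexamethasone against control (-0.036) and BCL2L11 for pomalidomide beside dexamethasone (0.075). Without those numbered 3, BMF turned with filanesib (0.0049) and filanesib alone (0.071), and BCL2L11 for the interaction of filanesib and dexamethasone (0.083), filanesib alone (0.011), pomalidomide alone (0.15), filanesib beside dexamethasone (0.089) and pomalidomide beside dexamethasone (0.24). Median centring and the mean of probe sets turned BMF with filanesib alone (0.0038 and 0.011), and the latter BMF for filanesib plus dexamethasone against control (-0.10) and against filanesib (-0.12).

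Single omissions also turned BMF with filanesib (-0.050 to 0.024), with filanesib alone (-0.076 to 0.056), for filanesib plus dexamethasone against control (-0.020 to 0.091) and against filanesib (-0.023 to 0.11), and in the triple combination against pomalidomide plus dexamethasone (-0.19 to 0.091). They turned BCL2L11 for the interactions of filanesib (-0.20 to 0.053) and pomalidomide (-0.043 to 0.21) with dexamethasone, with pomalidomide alone (-0.31 to 0.016), for filanesib plus dexamethasone against control (-0.11 to 0.19) and for pomalidomide beside dexamethasone (-0.27 to 0.23). With pomalidomide, MCL1 ran from -6.31e-04 to 0.051 and BCL2L1 from -0.040 to 0.031.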

Other observations

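BCL2L11 varied more between arrays of the same treatment than most genes. Its SD within groups was 0.29, above that of 92.9% of the 14884 genes, against 0.18 for BMF and 0.18 for the median gene. The spread was narrower in the triple combination, with 3 arrays within 0.08 of each other on the log2 scale, and in filanesib plus pomalidomide, within 0.22. Within groups, the Pearson r of the deviations of GAB1 and BCL2L11 from their group means was 0.95 over 24 arrays. The other 4 genes most like BCL2L11 had values of 0.72 (RGL1) to 0.84 (CHD2 and MED13L) there.

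The triple combination was also set against the sum of the effects of the single drugs, a comparison added after the data had been seen. For BCL2L11 the sum of the single effects gave a level of 6.90, and the measured mean was 7.56, a difference of 0.67 ± 0.42 (SE, 95% interval -0.21 to 1.54). For BMF the sum gave 6.99 against a mean of 7.12, a difference of 0.14 ± 0.29 (-0.45 to 0.73). Both intervals include 0.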
